A study of Mus musculus with 21 samples.

Results

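The genes described here are 10 genes of de novo lipogenesis, the route by which the liver makes fatty acids from carbohydrate, and of its control: the transcription factor genes *Srebf1* and *Mlxipl*, the enzyme genes *Acly*, *Acss2*, *Acaca*, *Acacb*, *Fasn*, *Elovl6* and *Scd1*, and the lipid droplet gene *Pnpla3*. They were chosen by name, as the rows of the liver count table whose Ensembl identifier carries one of these symbols in the GENCODE M21 annotation of the mouse genome GRCm38. All 10 were found among the 46078 rows of the table, and all 10 were among the 14370 rows with enough counts to be tested.

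In de novo lipogenesis, citrate exported from mitochondria is cleaved to acetyl-CoA by the product of *Acly*, and acetate is activated to acetyl-CoA by that of *Acss2*. Acetyl-CoA carboxylase, encoded by *Acaca* and *Acacb*, makes malonyl-CoA from it, and fatty acid synthase (*Fasn*) builds palmitate from malonyl-CoA. *Elovl6* lengthens palmitate to stearate and *Scd1* puts the double bond into both, giving palmitoleate and oleate. In liver the pathway is switched on after feeding by SREBP-1, the product of *Srebf1*, under insulin, and by ChREBP, the product of *Mlxipl*, under glucose, and it is low in fasting. *Pnpla3* encodes a protein of lipid droplets and is a known target of SREBP-1.

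Bulk RNA of mouse liver was sequenced in 21 libraries, 1 for each animal as the titles number them. The groups crossed 2 genotypes with 3 diets, and the study asked how the liver answers when cysteine is lacking from the diet and cannot be made. KO mice carried a whole-body deletion of *Cth* (called *Cse* in the study), the gene of cystathionine γ-lyase, which makes cysteine from cystathionine, on a mixed 129 and C57BL/6 background. The comparison mice are labelled WT, but the study's text describes its comparison animals as heterozygous for the deletion, and whether that holds for these libraries was not tested. The name WT is kept here from the labels. CTR is the control diet, noCys the diet without cysteine and noTrp the diet without tryptophan. The study included noTrp to set apart the responses particular to the lack of cysteine. In both depleted diets the other amino acids were raised in proportion. All animals were male, at least 9 weeks old and on restricted calories, per the study's methods, so every group, the controls included, was measured under restricted feeding. There were 3 WT CTR, 4 KO CTR, 4 WT noCys, 3 KO noCys (numbered 1, 3 and 4), 2 WT noTrp and 5 KO noTrp libraries.

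The total count per library was 8889951 to 27230852. *Cth* was at 108 to 452 CPM in the WT libraries and 6.34 to 15 in the KO libraries, so that every KO library was below every WT library. CPM are counts set to a common library size with TMM factors. The hepatocyte markers fixed for this work (8 genes, *Alb* and *Hnf4a* among them) were high throughout, with a summed level of 56628 to 105753 CPM, here without TMM factors. White fat, the other main lipogenic tissue, was nearly absent: of its defining markers *Lep* was at 0 in every library, *Adipoq* reached 0.763 and *Plin1* 0.164 CPM on the same scale, and the summed level of the 7 adipocyte markers was 23.4 to 49.8 with most of it in *Fabp4* and *Lipe*, which other cells also express. *Alb* itself differed: it was at 44754, 21622 and 24482 CPM in KO noCys against 63089 to 73113 in WT noCys (log2 fold change -1.15, adjusted p = 0.00108). In that comparison 3 of 8 hepatocyte, 2 of 3 tested adipocyte, 1 of 6 tested immune and 3 of 5 erythroid markers were called lower and 0 were called higher, and of the tested pancreas, muscle and gut markers 0 were called. Of all genes tested, 13.4% were called lower and 14.8% higher there. Against KO CTR 3 hepatocyte and 3 erythroid markers were called lower in KO noCys, and 1 hepatocyte marker lower and 1 immune marker higher in KO noTrp. Of all genes, 20.2% were called in the former comparison and 1.87% in the latter, in either direction. The share of counts on mitochondrially encoded genes was 4.49 to 7.29% in KO CTR, 3.77 to 5.51% in KO noCys and 3.41 to 4.79% in KO noTrp. The summed level was 38.3 to 124 CPM for the immune list and 112 to 378 for the erythroid list. The part of these values in the results below was not tested. In bulk tissue, fewer cells of a type and less RNA per cell cannot be told apart.

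Taken over all 6 groups, 4 of the 10 genes differed between groups (edgeR quasi-likelihood F-test, adjusted p over 14370 genes), against 28.7% of all genes tested. These were *Scd1* (adjusted p = 1.32e-05), *Acss2* (1.46e-05), *Acaca* (0.0143) and *Fasn* (0.0276). *Scd1* and *Acss2* kept that call when any 1 of the 21 libraries was left out. *Acaca* lost it without KO noCys replicate 3 or 4, and *Fasn* without KO CTR replicate 1 or KO noTrp replicate 1 or 3. The 10 genes did not move as a block: *Scd1* and *Acss2* were low in the KO mice on both depleted diets, *Fasn* was low in KO noTrp, *Acaca* in KO noCys was called higher against WT noCys and KO noTrp but not against KO CTR, and neither transcription factor gene was called in any comparison.

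**Figure D1:**
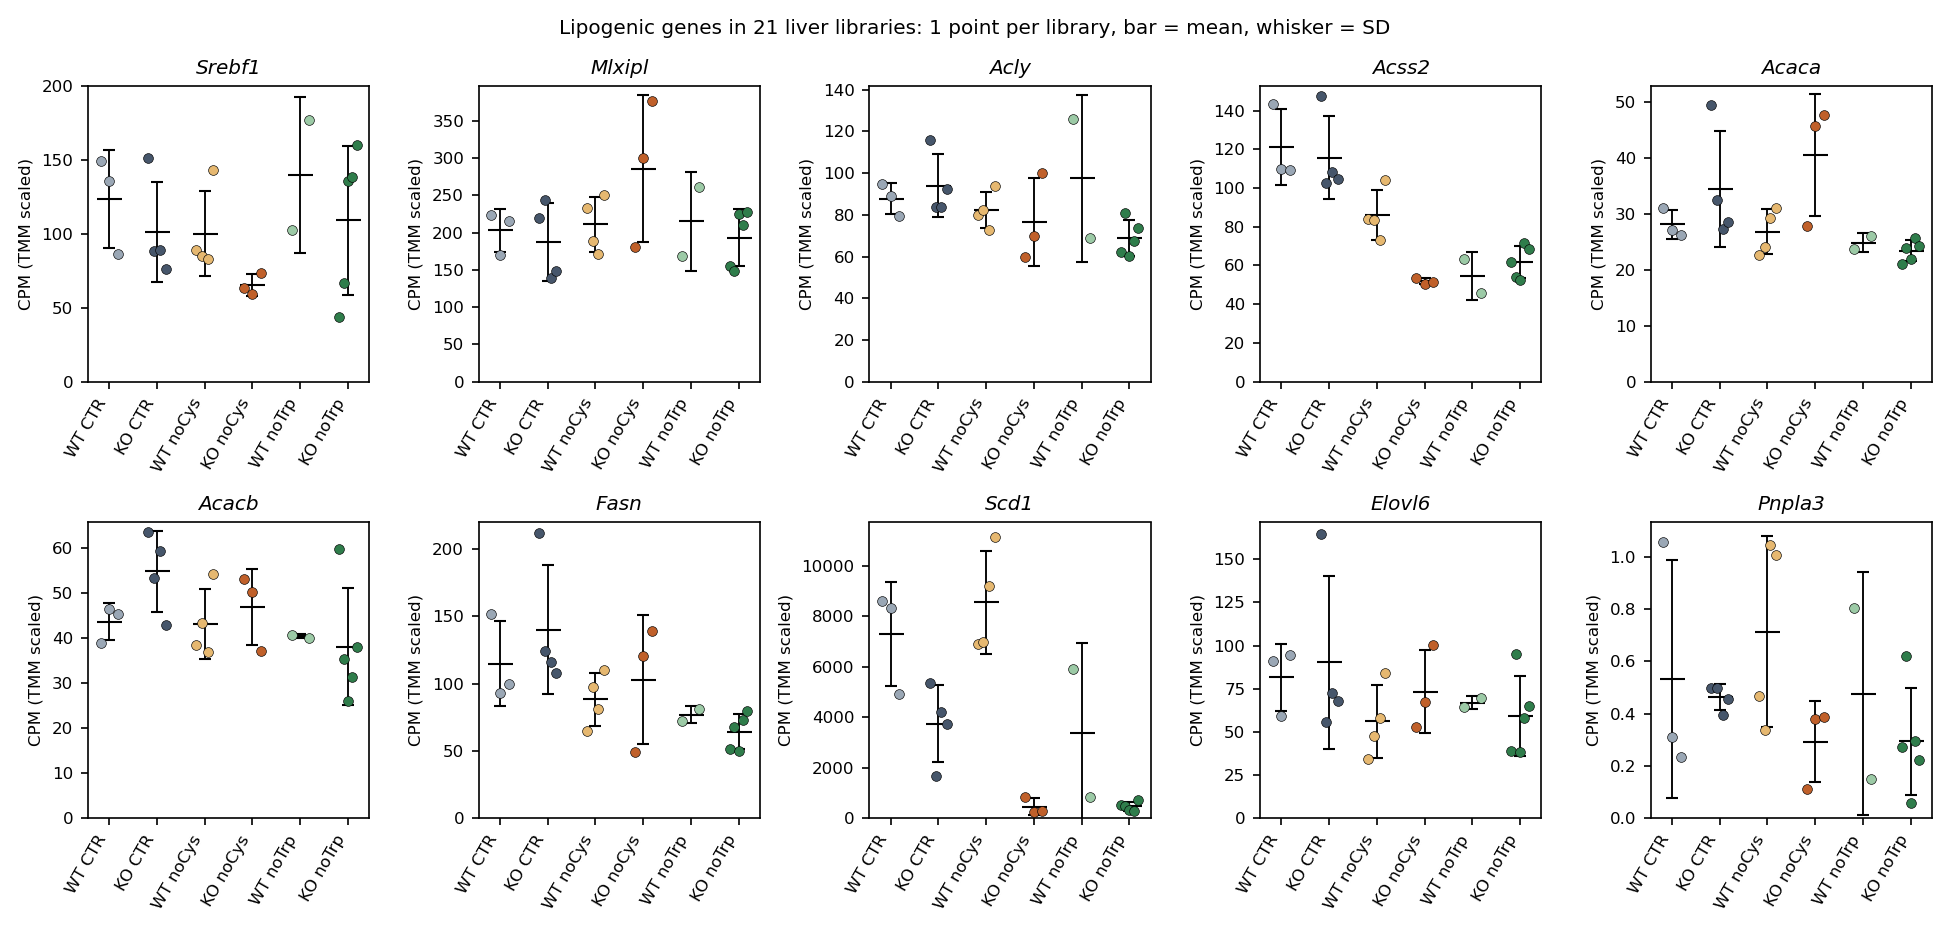
Level of each of the 10 genes (CPM, TMM scaled, linear axis from 0) in the 21 libraries by group, with 1 point per library, a bar at the mean and a whisker of 1 SD (cut off at 0 for Scd1 in WT noTrp, a group of 2). Scd1 lies between 258 and 836 in KO noCys and between 289 and 716 in KO noTrp, Acss2 is lowest in the same groups and WT noTrp, and KO CTR replicate 1 is the highest KO CTR library for Srebf1, Acly, Acss2, Acaca, Acacb, Fasn, Scd1 and Elovl6.

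Per length of exon, *Scd1* was by far the most abundant of the 10, with a mean level over all libraries of 793 CPM per kb. *Mlxipl* (38.3 CPM per kb) and *Srebf1* (18.6) followed, then *Acly* (15.7), *Elovl6* (10.9), *Fasn* (8.88), *Acss2* (8.17), *Acacb* (4.62) and *Acaca* (1.72). *Pnpla3* was near the limit of detection, at 0.296 CPM per kb and 1 to 20 counts in a library. *Scd1* also had the widest range, the highest group mean being 18.9 times the lowest. For the other 9 genes that ratio was 1.42 (*Acly*) to 2.44 (*Pnpla3*).

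**Figure D2:**
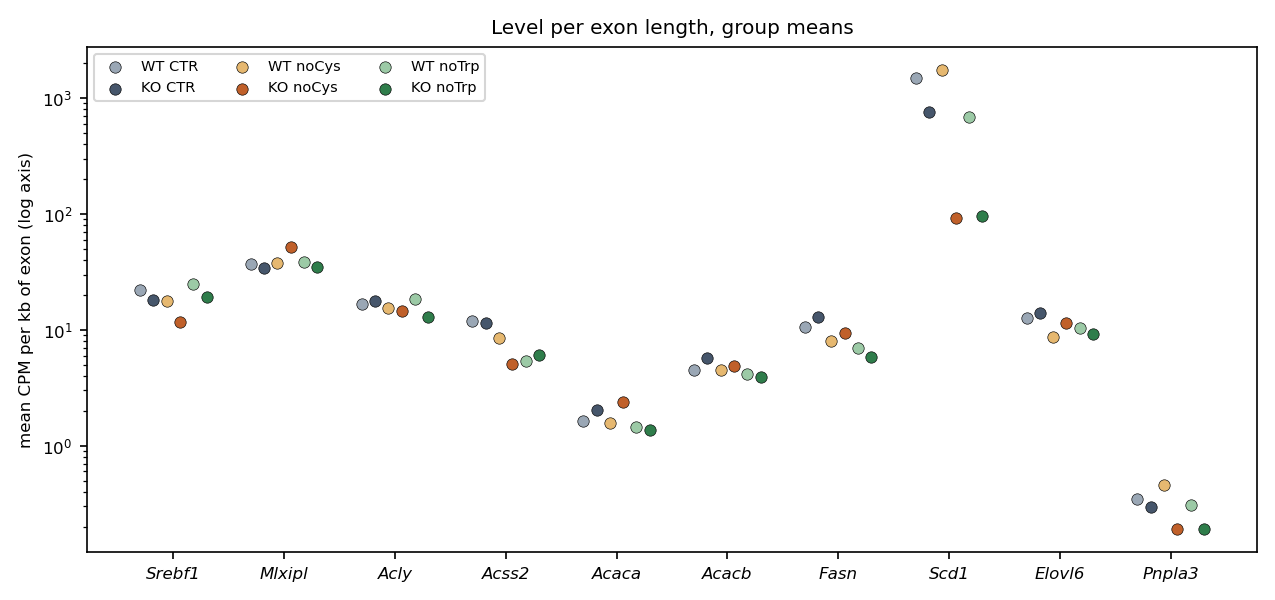
Mean level per kb of exon in each of the 6 groups (log axis) for the 10 genes. Scd1 is spread over more than 1 step of 10 between the KO depleted diets and the WT noCys group, whereas the group means of Mlxipl, Acly and Acacb nearly overlap.

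*Srebf1* (ENSMUSG00000020538, chr11:60199089-60222581, minus strand) was at 149, 136 and 86.5 CPM in WT CTR, 151, 88.5, 88.9 and 76.5 in KO CTR, 89.1, 85.3, 83.3 and 144 in WT noCys, 63.3, 59.4 and 73.5 in KO noCys, 103 and 177 in WT noTrp, with KO noTrp at 44.1, 67.1, 136, 138 and 160. The 3 KO noCys libraries lay below every WT noCys and every KO CTR library, while KO noTrp was split into a pair of low and 3 high libraries. Its log2 fold change was -0.62 ± 0.35 (SE) for KO noCys against WT noCys (adjusted p = 0.200, 95% interval -1.36 to 0.12) and -0.63 ± 0.35 against KO CTR (adjusted p = 0.223). Against KO noTrp, whose libraries overlapped with these, it was -0.74 ± 0.34 (unadjusted p = 0.0433, adjusted p = 0.156 in edgeR), and it was called there without KO noTrp replicate 1. A fit of only the groups compared called the former (adjusted p = 0.0291), and the other 6 alternatives did not. Groups that did not overlap with the first one lower, as here, were found for 18.1% of all genes in the former comparison and 13.2% in the latter. *Srebf1* shares 109 bases of exon with *Rai1* on the opposite strand, and the strand setting of the counting is not given in the sources used here.

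*Mlxipl* (ENSMUSG00000005373, chr5:135089890-135138382, plus strand) had its highest group mean in KO noCys, where that of *Srebf1* was lowest. It was at 223, 170 and 216 CPM in WT CTR, 220, 244, 139 and 148 in KO CTR, 233, 189, 172 and 250 in WT noCys, 181, 300 and 376 in KO noCys, 168 and 262 in WT noTrp, with KO noTrp at 156, 148, 225, 210 and 228. KO noCys replicates 3 and 4 were the highest of all 21 libraries, but replicate 1 lay within the range of every other group. The log2 fold change was 0.61 ± 0.24 for KO noCys against KO CTR (adjusted p = 0.0800), 0.57 ± 0.23 against KO noTrp (adjusted p = 0.104) and 0.44 ± 0.24 against WT noCys (adjusted p = 0.180). None was called in the edgeR fit of all libraries. Without KO noCys replicate 1 all 3 were called, and limma-voom with quality weights called the first and the second. Exons of *Mlxipl* overlap 235 bases of *Gm43500* on the opposite strand.

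Promoter windows (250 bases before to 50 bases after a start site, from RefSeq, GRCm38.p6) were read for the motifs of these factors, on both strands. A window was at hand for 9 of the 10 genes, 12 windows in all, and *Scd1* had none. The core of a sterol regulatory element, the site SREBP binds, was searched as TCACNCCAC; 1.24% of 32851 windows of the same length hold it. Of the 12 windows only that of the alternative start of *Mlxipl* did, at chr5:135106641-135106940 (plus strand), which is shown for this reason with the match in capitals.

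Mlxipl alternative start: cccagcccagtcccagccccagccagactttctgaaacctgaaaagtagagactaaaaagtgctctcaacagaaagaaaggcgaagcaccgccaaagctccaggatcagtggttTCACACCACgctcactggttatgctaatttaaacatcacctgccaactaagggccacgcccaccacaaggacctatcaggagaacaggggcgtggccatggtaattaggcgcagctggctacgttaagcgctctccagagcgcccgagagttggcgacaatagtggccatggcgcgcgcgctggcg

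The E-box CACGTG was in 1 of the 12 windows, that of the first start of *Mlxipl* (chr5:135089640-135089939), and in 7.15% of all windows. A relaxed form of the carbohydrate response element, the pair of E-boxes that ChREBP binds, was in 0 of the 12 and 0.557% of all. CCAAT boxes (CCAAT, 37.4% of all windows) were in 8 of the 12 and GC boxes (GGGCGG, 35.7%) in 6 of the 12. Matches to this element and to the E-box can share bases. These matches are letters in a window of 300 bases, and most of a gene's control regions lie outside it.

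*Acss2* (acetyl-CoA synthetase, ENSMUSG00000027605, chr2:155517948-155585724, plus strand) was low on the depleted diets. On the control diet it was at 144, 110 and 109 CPM in WT and at 147, 102, 108 and 105 in KO mice. On the depleted diets it was at 83.8, 83.2, 72.9 and 104 in WT noCys, 53.6, 50.7 and 51.2 in KO noCys, 63.1 and 45.8 in WT noTrp, with KO noTrp at 62.0, 54.2, 52.5, 71.8 and 68.5. All libraries of the depleted diets but WT noCys replicate 4 were below all control diet libraries. In KO mice *Acss2* fell by 1.16 ± 0.16 on the log2 scale without cysteine (to 0.448 of the KO CTR mean, adjusted p = 5.76e-05) and by 0.91 ± 0.14 without tryptophan (to 0.534, adjusted p = 0.00123). In WT mice it fell by 1.15 ± 0.19 without tryptophan (to 0.450 of the WT CTR mean, adjusted p = 0.00442). That call was lost when only those groups were fitted (adjusted p = 0.0960). Without cysteine the WT change was -0.49 ± 0.15 (adjusted p = 0.142), with no overlap between the groups, as was the case for 7.24% of all genes in that direction. KO noCys was also lower than WT noCys, by -0.73 ± 0.16 (adjusted p = 0.00183), and every one of the 7 fits that left out a library of these groups called it.

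Whether the genotype effect on *Acss2* differed between the diets was tested directly. KO against WT was -0.92 ± 0.24 lower without cysteine than without tryptophan (adjusted p = 0.0235), since on noTrp both genotypes were already low and KO was not below WT (0.18 ± 0.17, adjusted p = 0.840). Of all genes, 6.35% were called in that test. The call was lost without KO noCys replicate 3 or WT noTrp replicate 2, and with scaling by library totals alone (-0.74, adjusted p = 0.0675). The cysteine effect itself differed between genotypes by -0.67 ± 0.22 (adjusted p = 0.0700), which was not called here but was by DESeq2 and limma-voom. Exons of *Acss2* overlap those of *Gss* (395 bases), *Acss2os* (335) and *Ggt7* (197) on the opposite strand.

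The promoter windows of *Acss2* and *Fasn* are shown because both genes fell without tryptophan in KO mice, a choice made after their values were seen. Capitals mark GC boxes (GGGCGG or, on the other strand, CCGCCC) and CCAAT boxes (CCAAT or ATTGG). The window of *Acss2* (chr2:155517793-155518092, plus strand) holds 5 GC boxes and 1 CCAAT box. That of *Fasn* (chr11:120824498-120824797, minus strand) holds 3 CCAAT boxes, of which a pair overlaps, and 0 GC boxes. One or both kinds of box were also found for *Srebf1*, *Mlxipl*, *Acly*, *Acacb* and *Pnpla3*, and neither for *Acaca* and *Elovl6*. The only windows of *Acaca* (chr11:84195188-84195487) and *Acacb* (chr5:114165268-114165567) lie at starts inside these genes. Their annotated first positions are 84129672 and 114146535, and no window was at hand there.

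Acss2 promoter: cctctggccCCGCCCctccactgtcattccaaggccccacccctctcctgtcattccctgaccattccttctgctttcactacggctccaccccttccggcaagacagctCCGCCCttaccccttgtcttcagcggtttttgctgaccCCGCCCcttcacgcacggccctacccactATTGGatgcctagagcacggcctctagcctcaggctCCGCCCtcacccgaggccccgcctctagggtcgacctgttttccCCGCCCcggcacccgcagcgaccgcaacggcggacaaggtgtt
Fasn promoter: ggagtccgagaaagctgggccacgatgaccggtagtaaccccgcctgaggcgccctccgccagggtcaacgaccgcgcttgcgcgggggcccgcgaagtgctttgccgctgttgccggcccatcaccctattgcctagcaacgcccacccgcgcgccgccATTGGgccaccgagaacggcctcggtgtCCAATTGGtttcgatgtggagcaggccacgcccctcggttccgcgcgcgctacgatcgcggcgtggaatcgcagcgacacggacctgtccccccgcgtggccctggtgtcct

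*Acly* (ATP citrate lyase, ENSMUSG00000020917, chr11:100476353-100528000, minus strand) was steadier. It was at 79.6 to 94.7 CPM in WT CTR, 83.5 to 116 in KO CTR, 72.8 to 93.8 in WT noCys, with KO noCys at 59.8, 70.0 and 100. On the noTrp diet it was at 126 and 69.0 in WT mice. The KO noTrp libraries, at 62.0, 80.8, 60.2, 67.4 and 73.5, were below every KO CTR library. The corresponding log2 fold change of KO noTrp against KO CTR was -0.45 ± 0.16 (adjusted p = 0.155), and 3.15% of all genes had KO noTrp entirely below KO CTR. Thus the enzyme that draws acetyl-CoA from citrate and the enzyme that draws it from acetate differed in what was called: *Acss2* in 4 comparisons of groups, *Acly* in 0.

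The carboxylase genes code for the step to malonyl-CoA, *Acaca* for the cytosolic form used in synthesis and *Acacb* for the form at the mitochondrion, where malonyl-CoA holds back fatty acid oxidation. *Acaca* (ENSMUSG00000020532, chr11:84129672-84401651, plus strand) was at 30.9, 27.1 and 26.1 CPM in WT CTR, 49.4, 32.4, 27.2 and 28.4 in KO CTR, 22.7, 24.0, 29.3 and 31.0 in WT noCys, 27.9, 45.7 and 47.6 in KO noCys, 23.6 and 26 in WT noTrp, with KO noTrp at 21, 23.9, 21.9, 25.7 and 24.2. KO noCys replicates 3 and 4 stood high and replicate 1 lay among the WT noCys libraries. *Acaca* rose in KO noCys against WT noCys by 0.60 ± 0.19 (1.52-fold, adjusted p = 0.0207), in a comparison where 14.8% of all genes were called higher. The call depended on single libraries: it was lost without WT noCys replicate 1 or 2 or without KO noCys replicate 3 or 4 (0.47 to 0.80 over the 7 fits that left a library out). Against KO CTR, where replicate 1 reached 49.4 CPM and the groups overlapped, the difference was 0.24 ± 0.18 (adjusted p = 0.393).

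Between the depleted diets in KO mice the *Acaca* groups did not overlap, and KO noCys was above KO noTrp by 0.80 ± 0.18 (1.74-fold, adjusted p = 0.00533). The call was lost without KO noCys replicate 3. Of all genes 13.9% were called in this comparison, and 10% had KO noCys entirely above KO noTrp. *Acaca* was the only one of the 10 called there, and the 7 alternative settings that kept every library called it too. KO noTrp lay below every KO CTR library (-0.56 ± 0.16, adjusted p = 0.0793), a difference that DESeq2 called (adjusted p = 0.0373).

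*Acacb* (ENSMUSG00000042010, chr5:114146535-114250761, plus strand), the paralog, was at 53.0, 50.3 and 37.2 CPM in KO noCys, where WT noCys ran from 36.8 to 54.2, a log2 fold change of 0.11 ± 0.21 (adjusted p = 0.720). In KO CTR it was at 63.5, 53.4, 59.4 and 43.0. In KO noTrp it was at 59.8, 35.3, 25.9, 31.3 and 37.9, so that replicate 1 stood at the KO CTR level and the other 4 below it. The difference was -0.52 ± 0.18 (adjusted p = 0.146), and -0.75 and called without KO noTrp replicate 1. In WT CTR (39.0 to 46.5) and WT noTrp (40.8 and 40.1) it was close to the same level.

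*Fasn* (ENSMUSG00000025153, chr11:120805846-120824547, minus strand) was at 151, 93.3 and 99.8 CPM in WT CTR, 212, 125, 116 and 108 in KO CTR, 64.5, 97.1, 81.2 and 110 in WT noCys, 48.8, 121 and 139 in KO noCys, 72.5 and 81.2 in WT noTrp, with KO noTrp at 51.5, 67.5, 49.9, 73.0 and 79.7. All noTrp libraries of each genotype were below all control libraries of that genotype. In KO mice *Fasn* fell without tryptophan by 1.12 ± 0.26 on the log2 scale (to 0.459 of the KO CTR mean, adjusted p = 0.0264). The call was lost without KO CTR replicate 1, KO noTrp replicate 1 or KO noTrp replicate 3, with values of -0.86 to -1.23 over the 9 fits that left a library out, and with scaling by library totals alone (adjusted p = 0.0510). In WT, where 15.3% of all genes had noTrp entirely below CTR, the same diet gave -0.58 ± 0.35 (adjusted p = 0.407), and the effects in the genotypes differed by -0.55 ± 0.43 (adjusted p = 0.966).

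Without cysteine *Fasn* in KO mice was spread from the lowest of all 21 libraries (48.8 CPM, replicate 1) to 139 CPM, with no call against WT noCys (0.23 ± 0.29, adjusted p = 0.585) or KO CTR (-0.44 ± 0.29, adjusted p = 0.313). KO noCys against KO noTrp was 0.69 ± 0.28 (adjusted p = 0.102), and 1.02 and called without KO noCys replicate 1. *Fasn* has no overlapping gene in the annotation.

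*Elovl6* (ENSMUSG00000041220, chr3:129532355-129638495, plus strand), the elongase of palmitate, had a coefficient of variation of 55.6% in KO CTR. It was at 91.2, 58.9 and 94.3 CPM in WT CTR, 165, 55.9, 72.7 and 67.6 in KO CTR, 34.4, 47.5, 58.1 and 84.1 in WT noCys, 52.8, 67.2 and 100 in KO noCys, 64.2 and 69.6 in WT noTrp, with KO noTrp at 38.8, 94.8, 38.3, 58.0 and 65.1. In each of the 8 comparisons of groups the libraries overlapped, and 0 were called. The largest difference was KO noTrp against KO CTR (-0.62 ± 0.32, adjusted p = 0.333).

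*Scd1* (stearoyl-CoA desaturase, ENSMUSG00000037071, chr19:44394455-44407879, minus strand) was at 8603, 8341 and 4917 CPM in WT CTR, 5362, 1686, 4198 and 3741 in KO CTR, 6881, 6980, 9211 and 11148 in WT noCys, 836, 258 and 264 in KO noCys, 5894 and 848 in WT noTrp, with KO noTrp at 513, 489, 335, 289 and 716. The 8 KO libraries on a depleted diet were all below every other library, the lower WT noTrp library at 848 CPM being next to the highest of them. Without cysteine, KO was at 0.0529 of the WT mean (log2 fold change -4.24 ± 0.61, adjusted p = 4.44e-05), in a comparison that called 13.4% of all genes lower. Against KO CTR, *Scd1* fell by 3.05 ± 0.57 without cysteine (to 0.121 of the mean, adjusted p = 0.000866) and by 3.0 ± 0.46 without tryptophan (to 0.125, adjusted p = 0.00170). These calls held in all fits that left out 1 library and in the 7 other settings. The fall was larger without KO noCys replicate 1, with a log2 fold change of -5.03 against WT noCys and -3.84 against KO CTR. The KO groups on both depleted diets did not differ beyond their spread (-0.05 ± 0.49, 95% interval -1.06 to 0.96, adjusted p = 0.962).

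In WT mice *Scd1* was not called on either depleted diet. Without cysteine the difference from WT CTR was 0.23 ± 0.51 (adjusted p = 0.888), and the cysteine effect was -3.28 ± 0.75 lower in KO than in WT (adjusted p = 0.0120, called in all 14 fits that left out a library, with -4.07 without KO noCys replicate 1), where 7.44% of all genes were called. Without tryptophan the WT libraries disagreed, 1 at the control level and 1 at 848 CPM, so the mean difference of -1.11 ± 0.63 (adjusted p = 0.363) describes neither. Accordingly KO noTrp against WT noTrp (-2.85 ± 0.52, adjusted p = 0.0165) rested on WT noTrp replicate 1: without it the value was -0.86 and was not called. It was also lost without KO noTrp replicate 3, and with limma-voom, a replicate block or a fit of these groups alone. Only 0.195% of all genes were called in that comparison.

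The libraries of WT noTrp differed in other genes as well. *Igfbp1*, a gene induced by fasting and amino acid lack, was at 1946 CPM in replicate 1 and 206 in replicate 2. *Acly* was at 126 and 69.0, and *Khk* at 1484 and 699. Their part in the result was not tested. On the control diet KO was at 0.514 of the WT mean for *Scd1* (-0.96 ± 0.50, adjusted p = 0.561), with overlapping libraries, in a comparison where 0.32% of all genes and 0 of the 10 were called (0 at an unadjusted p under 0.05, and 0 by DESeq2 and limma-voom).

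*Pnpla3* (ENSMUSG00000041653, chr15:84167837-84187236, plus strand) passed the filter with only 1 to 20 counts per library. The part of counting error in its spread was not tested. It was at 1.06, 0.309 and 0.232 CPM in WT CTR, 0.394 to 0.500 in KO CTR, 0.467, 0.338, 1.04 and 1.01 in WT noCys, 0.113, 0.381 and 0.386 in KO noCys, 0.805 and 0.149 in WT noTrp, with KO noTrp at 0.0588 to 0.621. The largest difference was KO noCys against WT noCys (-1.17 ± 0.61, adjusted p = 0.163, 95% interval -2.45 to 0.11). A change of the size seen for *Acss2* was thus not called for this gene. *Pnpla3* shares 105 bases of exon with *Gm49513* on the same strand.

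**Figure D3:**
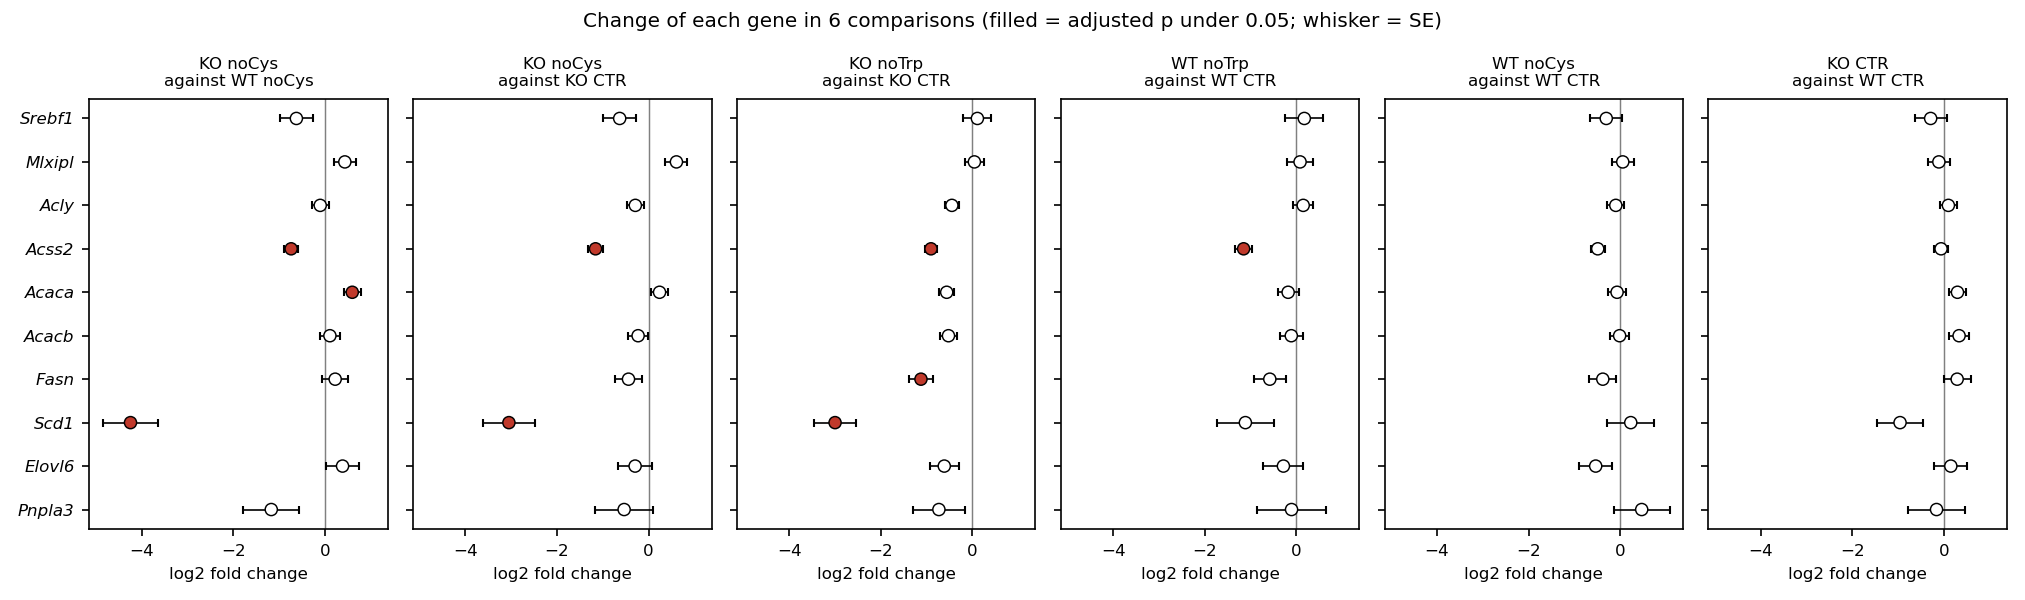
Log2 fold change of each of the 10 genes in 6 comparisons of groups, with whiskers of 1 SE and filled points for an adjusted p under 0.05 (edgeR). Scd1 and Acss2 are filled on the left in the KO noCys and KO noTrp panels (Scd1 at -4.24, -3.05 and -3.0). Fasn is also filled on the left in KO noTrp against KO CTR (-1.12), and Acss2 in WT noTrp against WT CTR (-1.15). Acaca alone is filled on the right (0.60), and the panels of WT noCys against WT CTR and KO CTR against WT CTR hold no filled point.

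Counted by comparison, 3 of the 10 were called in KO noCys against WT noCys (1 higher, 2 lower, against 28.2% of all genes), 2 in KO noCys against KO CTR (20.2%), 3 in KO noTrp against KO CTR (1.87%), 1 in KO noTrp against WT noTrp (0.195%), 1 in WT noTrp against WT CTR (3.19%), 0 in WT noCys against WT CTR (0.661%, with *Acss2* alone at an unadjusted p under 0.05 and called by limma-voom) and 1 in KO noCys against KO noTrp. In the comparison with the most calls over all genes the share of the 10 was thus close to that background, whereas in KO noTrp against KO CTR 3 of 10 stood against 1.87%. The median log2 fold change of the 10 was 0.01 in KO noCys against WT noCys, -0.37 in KO noCys against KO CTR and -0.59 in KO noTrp against KO CTR, where the median of all genes was -0.02, 0.00 and 0.00. In both comparisons with KO CTR 8 of the 10 values were below 0. The comparisons with KO CTR share its 4 libraries, and KO CTR replicate 1 was the highest of them for 8 of the 10 genes. No gene of all those tested, and so 0 of the 10, was called for a difference of the tryptophan effect between genotypes, although *Scd1* (-1.89 ± 0.74) and *Acly* (-0.60 ± 0.27) were under 0.05 before adjustment.

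Across the 21 libraries the 10 genes were only loosely tied. Pearson's r between pairs of log2 levels was -0.322 (*Mlxipl* with *Scd1*) to 0.784 (*Acaca* with *Fasn*) over 45 pairs, with a median of 0.312, and the median within groups was 0.391. *Fasn* followed the mean of the other 9 most closely (r = 0.884) and *Mlxipl* least (r = 0.0979). *Srebf1* was at 0.224. The libraries share scaling and groups, so these values are a description. The mean standardized level of the 10 was highest in KO CTR replicate 1 (1.47 SD) and lowest in KO noTrp replicate 3 (-1.11 SD). All 5 KO noTrp libraries were below 0, and KO noCys ran from -0.782 SD in replicate 1 to 0.375 SD in replicate 4.

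The genes whose levels were most like that mean profile, among 9152 ranked, were *Ss18* (r = 0.835), *Smco4* (0.792), *Deaf1* (0.781), *Tprkb* (0.779), *Mbd1* (0.768), *Hcn3* (0.766), *Zfp707* (0.757) and *Rbm15b* (0.741), each over 21 libraries. For *Scd1* alone, a ranking added after its values were seen, they were *Camk1d* (r = 0.915), *Fam213a* (0.914), *Slc44a3* (0.891), *Aplp2* (0.888), *Galns* (0.888), *Khk* (0.888), *Cadps2* (0.883) and *Degs1* (0.880). *Khk*, ketohexokinase, is the enzyme that brings fructose into the pathway, and *Degs1* is a desaturase of sphingolipid synthesis.

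The genes around the 10 were followed with lists written from general knowledge. The counts called in each list stand against the share of all genes called in the same comparison. In KO noCys against WT noCys this share was 14.8% higher and 13.4% lower. In either direction it was 20.2% in KO noCys and 1.87% in KO noTrp against KO CTR. It was 13.9% in KO noCys against KO noTrp and 3.19% in WT noTrp against WT CTR. Of 12 genes that control SREBP and ChREBP, 2 were called higher and 4 lower in KO noCys against WT noCys. *Insig1*, which holds SREBP in the endoplasmic reticulum and is itself an SREBP target, was at 68.2, 34.3 and 58.2 CPM in KO noCys, where WT noCys had 157, 214, 131 and 132, and fell by 1.57 ± 0.25 (adjusted p = 0.000124). *Srebf2*, the factor of sterol synthesis, fell by 0.66 ± 0.11 (adjusted p = 0.000286) and *Usf2* by 0.51 ± 0.14 (adjusted p = 0.00951). *Mlx*, the partner of ChREBP, rose by 0.46 ± 0.11 (adjusted p = 0.00433), and *Mbtps2*, a protease that releases SREBP, by 0.43 ± 0.16 (adjusted p = 0.0449). The call of *Mbtps2* was kept in 2 of the 7 fits that left out a library, those without WT noCys replicate 3 or KO noCys replicate 4, and in 2 of the 7 other settings (RLE size factors and library totals). That of *Usf2* was lost with library totals alone. So *Srebf2* was called where *Srebf1* was not, at nearly the same fold change and with a smaller SE.

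Against KO CTR the same list had 1 called higher and 5 lower in KO noCys, with *Insig1* at -1.73 ± 0.25 (adjusted p = 8.46e-05) and *Srebf2* at -0.99 ± 0.11 (adjusted p = 9.49e-06). In KO noTrp it had 0 higher and 2 lower, *Srebf2* (-0.45 ± 0.10, adjusted p = 0.0178) and *Scap*, the escort of SREBP (-0.41 ± 0.08, adjusted p = 0.00794). Both were lost when only these groups were fitted, and *Srebf2* also without KO CTR replicate 1. In KO noCys against KO noTrp, *Insig1* was lower by -1.19 ± 0.24 (adjusted p = 0.00257) and *Mlx* higher by 0.41 ± 0.10 (adjusted p = 0.0128), the latter not called without KO noCys replicate 3. The cysteine effect on *Insig1* was -1.91 ± 0.34 lower in KO than in WT (adjusted p = 0.00255). The list's median was -0.12 in KO noCys against WT noCys and -0.13 in KO noTrp against KO CTR.

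Of 8 regulators of acetyl-CoA carboxylase, *Trib3* alone was called in KO noCys against WT noCys. *Trib3*, a pseudokinase gene of the amino acid response whose product can mark carboxylase for breakdown, was at 51.9, 225 and 101 CPM in KO noCys, where WT noCys had 17.3, 23.7, 14.0 and 22.9, and rose by 2.70 ± 0.40 (adjusted p = 7.08e-05), or by 1.98 without KO noCys replicate 3. It was lowest of these in replicate 1, the KO noCys library in which *Acaca*, *Fasn* and *Mlxipl* were also lowest and *Scd1* highest. In KO noTrp it was at 19.3 to 65.7 CPM, with 0 of the 8 genes called against KO CTR. *Thrsp* and *Mid1ip1*, which promote lipogenesis, and the subunits of AMP-activated protein kinase, which restrains the carboxylases, were not called in KO noCys against WT noCys. Against KO CTR 2 of the 8 were higher in KO noCys, *Trib3* (2.07 ± 0.39, adjusted p = 0.00101, and 1.34 without KO noCys replicate 3) and the kinase subunit *Prkab1* (0.48 ± 0.12, adjusted p = 0.00933). *Prkab1* was also higher than in KO noTrp (0.40 ± 0.12, adjusted p = 0.0299), a call that 3 of the 8 fits that left out a library kept (those without KO noCys replicate 1 or KO noTrp replicate 1 or 4), as did 4 of the 7 other settings. Both calls of *Prkab1* were lost without KO noCys replicate 3.

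Of 8 genes that supply carbon and NADPH, 2 were called higher and 4 lower in KO noCys against WT noCys. *Pklr*, the liver pyruvate kinase and a target of ChREBP, rose by 0.92 ± 0.30 (adjusted p = 0.0284) and *Pgd* of the pentose phosphate pathway by 0.54 ± 0.12 (adjusted p = 0.00183). *G6pdx*, the first enzyme of that pathway, fell by 1.05 ± 0.33 (adjusted p = 0.0246), *Idh1* by 0.76 ± 0.11 (adjusted p = 7.68e-05) and *Khk* by 0.63 ± 0.19 (adjusted p = 0.0174). *G6pdx* and *Pgd*, neighbours in a pathway, were thus called in opposite directions. Leaving out 1 library kept *Pgd* and *Idh1* in all 7 fits, *Khk* in 4 (lost without WT noCys replicate 4 or KO noCys replicate 3 or 4), *G6pdx* in 3 (lost without these or KO noCys replicate 1) and *Pklr* in 2 (kept without WT noCys replicate 4 or KO noCys replicate 1). *Khk* and *G6pdx* were also lost with library totals alone. In KO noTrp against KO CTR 0 were higher and 3 lower, with *Me1*, malic enzyme, at -1.02 ± 0.25 (adjusted p = 0.0398). *Khk* was at -0.65 ± 0.16 (adjusted p = 0.0439) and the citrate carrier *Slc25a1* at -0.40 ± 0.08 (adjusted p = 0.00919). Of the 9 fits that left out a library, 9 kept *Slc25a1*, 3 kept *Me1* (those without KO CTR replicate 2 or 4 or KO noTrp replicate 5) and 1 kept *Khk* (without KO CTR replicate 2). All 3 calls were lost with library totals alone, and each was kept in 5 of the 7 other settings. *Me1* and *Pklr* were higher in KO noCys than in KO noTrp, by 1.05 ± 0.27 (adjusted p = 0.0132) and 1.20 ± 0.29 (adjusted p = 0.00836), the same direction as *Acaca* in that comparison, and like it both were lost without KO noCys replicate 3.

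Elongation and desaturation beyond *Elovl6* and *Scd1* were followed in 11 genes, of which 1 was called higher and 6 lower in KO noCys against WT noCys, 0 and 5 against KO CTR, 0 and 3 in KO noTrp against KO CTR, and 0 and 4 in WT noTrp against WT CTR. The gene called higher was *Hacd2* (0.35 ± 0.13, adjusted p = 0.0444), a dehydratase of the elongation cycle, and it was kept in 2 of 7 fits that left out a library (without WT noCys replicate 4 or KO noCys replicate 4) and in 4 of the 7 other settings, limma-voom not among them. *Elovl5*, which lengthens polyunsaturated fatty acids, was at 821, 692 and 575 CPM in WT CTR mice. Its KO CTR values were 724, 454, 443 and 371. On the depleted diets it was at 362 to 435 in WT noCys, 229, 200 and 179 in KO noCys, 345 and 212 in WT noTrp, with KO noTrp at 139 to 242. It fell by 0.94 ± 0.23 in KO noCys against WT noCys (adjusted p = 0.00417), 1.30 ± 0.19 in KO noTrp against KO CTR (adjusted p = 0.00123) and 1.32 ± 0.28 in WT noTrp against WT CTR (adjusted p = 0.0156). *Elovl3*, of the longest saturated chains, fell by 1.63 ± 0.35 (adjusted p = 0.00187), 1.49 ± 0.30 (adjusted p = 0.0112) and 2.76 ± 0.45 (adjusted p = 0.00432) in the same comparisons. In WT noTrp against WT CTR both were lost when only these groups were fitted, *Elovl5* also with limma-voom and without replicate 1 of WT CTR or replicate 2 of WT noTrp, and *Elovl3* without WT noTrp replicate 1 (-2.19, and -3.69 without replicate 2). Both were low on the tryptophan-free diet in either genotype, as *Acss2* was. *Fads1*, a desaturase of polyunsaturated fatty acids, fell by 0.47 ± 0.13 in KO noCys against WT noCys (adjusted p = 0.0100) and by 0.80 ± 0.16 in WT noTrp against WT CTR (adjusted p = 0.0103). The former was lost without KO noCys replicate 3 and with library totals alone, the latter without WT noTrp replicate 1, with limma-voom and when only these groups were fitted. *Tecr*, the reductase of the elongation cycle, fell by 0.42 ± 0.09 in KO noTrp against KO CTR (adjusted p = 0.0221). It was kept in 5 of 9 fits that left out a library (lost without replicate 1 or 3 of KO CTR or replicate 3 or 4 of KO noTrp) and in 4 of the 7 other settings, library totals alone and a fit of these groups not among them.

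**Figure D4:**
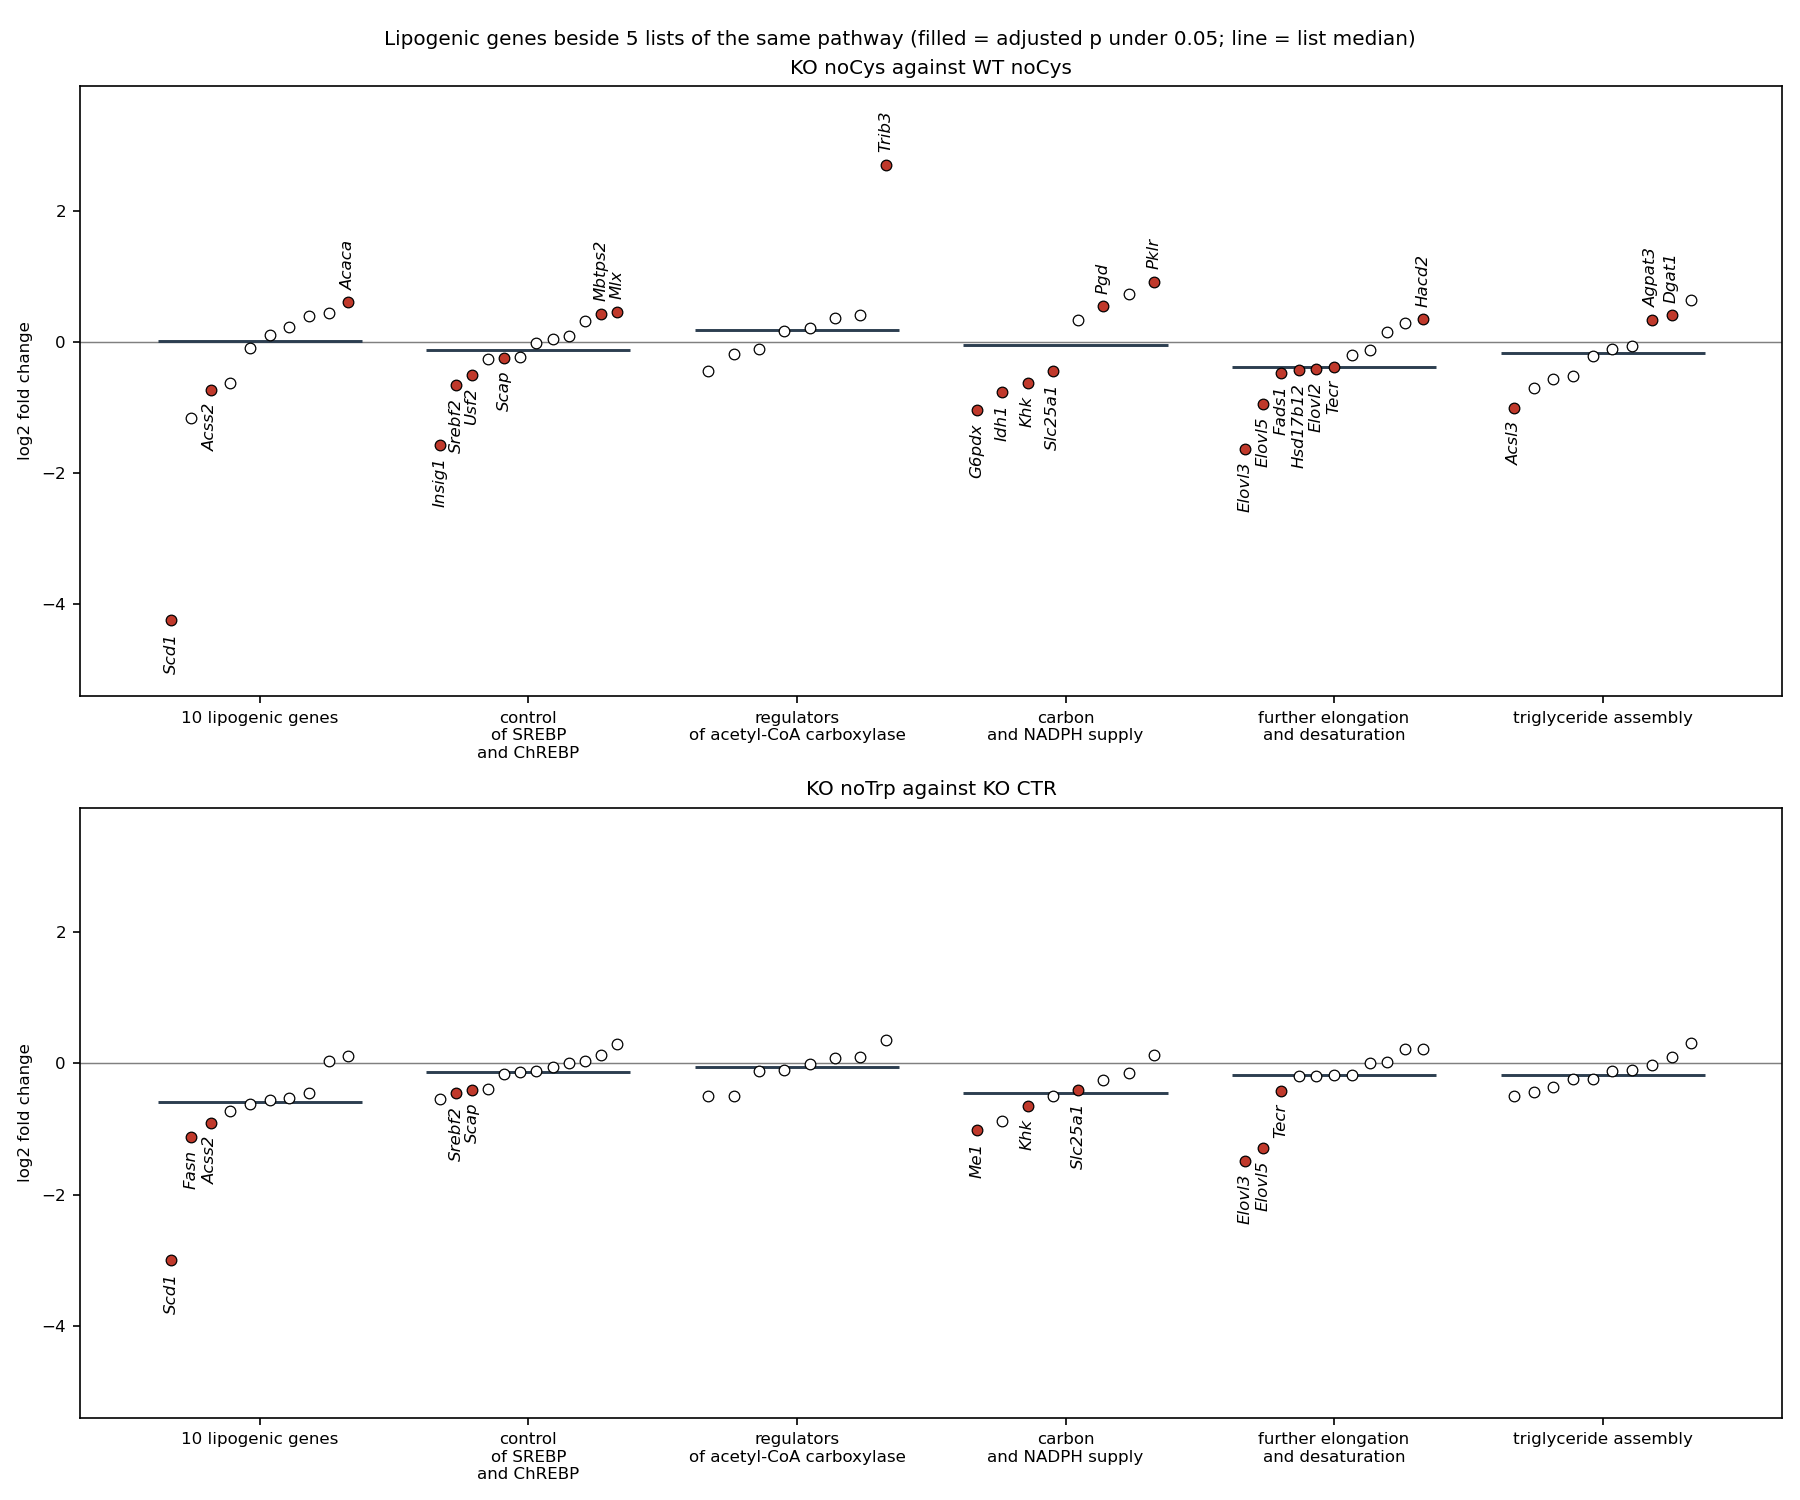
Log2 fold change of the 10 genes and of the tested genes of 5 lists around them in KO noCys against WT noCys (top) and KO noTrp against KO CTR (bottom), 1 point per gene, filled and named where the adjusted p is under 0.05, with a line at each list's median. In the top panel called genes lie on both sides of 0, from Scd1 at -4.24 to Trib3 at 2.70, and in the bottom panel all called genes lie below 0.

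Of 10 genes of triglyceride assembly, 2 were called higher (*Dgat1*, 0.41 ± 0.11, adjusted p = 0.00859; *Agpat3*, 0.34 ± 0.10, adjusted p = 0.0126) and 1 lower (*Acsl3*, -1.01 ± 0.28, adjusted p = 0.0114) in KO noCys against WT noCys, and 0 in KO noTrp against KO CTR. Without KO noCys replicate 3 *Agpat3* and *Acsl3* were not called, nor was *Agpat3* without KO noCys replicate 1. Against KO CTR 1 was higher and 4 lower in KO noCys, among them the acyl-CoA synthetase genes *Acsl3* (-1.10 ± 0.28, adjusted p = 0.00887), *Acsl1* (-0.89 ± 0.23, adjusted p = 0.00937) and *Acsl5* (-0.39 ± 0.11, adjusted p = 0.0200). These 3 were lost without KO noCys replicate 3, and *Acsl5* also without KO noCys replicate 4 or KO CTR replicate 2, with library totals alone and when only these groups were fitted. Genes of the fasted state, which move against lipogenesis after a meal, moved in both directions in KO noCys against WT noCys: *Cpt1a* rose by 0.44 ± 0.13 (adjusted p = 0.0177), while *Pck1* fell by 0.64 ± 0.15 (adjusted p = 0.00430). The call of *Cpt1a* was lost without WT noCys replicate 3 or KO noCys replicate 1 or 3. In KO noTrp against KO CTR 0 of the 7 were called. Of 9 tested clock genes, which follow the hour of sampling, *Per1* (-0.52 ± 0.13, adjusted p = 0.00480) and *Nr1d2* (-0.41 ± 0.11, adjusted p = 0.0117) were lower in KO noCys than in WT noCys, and 0 were called against KO CTR in either depleted diet. Both were lost with library totals alone, and *Nr1d2* without KO noCys replicate 3. In WT noTrp against WT CTR the calls outside the elongation list were *Prkag1* (0.56 ± 0.13, adjusted p = 0.0277), *Dgat1* (0.53 ± 0.13, adjusted p = 0.0324) and *Igfbp1* (3.87 ± 0.86, adjusted p = 0.0189), which were higher, and *Slc25a1* (-0.60 ± 0.11, adjusted p = 0.00660) and *Clock* (-0.64 ± 0.15, adjusted p = 0.0308), which were lower. When only these groups were fitted all 5 were lost, as they were with limma-voom, and *Clock* was also lost with library totals alone. Of the 5 fits that left out a library, 5 kept *Slc25a1*, 0 kept *Dgat1*, and 1 each kept *Prkag1* and *Clock* (without WT CTR replicate 2) and *Igfbp1* (without WT noTrp replicate 2). *Igfbp1* ran from 1.49 to 4.73 over these fits and was lowest without WT noTrp replicate 1. In KO CTR against WT CTR, KO noTrp against WT noTrp and WT noCys against WT CTR, 0 genes of these 7 lists were called.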

How the data were processed

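Per the labels and the study's methods, the authors aligned paired reads of poly(A) RNA to GRCm38 with HISAT2 2.1.0 and made the deposited raw counts with HTSeq 0.11.0, with no normalization. Annotation release and strand setting are not given in the sources used here. Of 46078 gene rows, 45229 carried a symbol in GENCODE M21, and the others held 0.0536% of the counts. For 1 column of the table the labels gave no sample, and it was left out. By its name it falls between the columns of KO noCys replicates 1 and 3, and the labels do not say what it holds. Groups and replicate numbers came from the sample titles.

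Counts were tested with edgeR 4.0.16 in R 4.3.3: filterByExpr over the 6 groups (minimum count 10, minimum total 15), TMM factors (0.883 to 1.14), and a quasi-likelihood F-test, two-sided, in a one-way model of all 21 libraries, in which the groups (2 to 5 libraries) share the estimate of spread. The p-values were adjusted by Benjamini-Hochberg over 14370 genes and a gene was called under 0.05. Depth was 8889951 to 27230852 counts per library. The script was tested on simulated data. Per the study, littermates were shared between groups where possible, but no source used here ties libraries to litters, so p-values measure the spread between these samples.

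The 10 genes, the lists around them and the tests were chosen with earlier results of these data known. All 10 genes were tested in every comparison. Genes of the lists were named from the called ones with the largest change, at most 3 in each direction. Not all are printed for every comparison, and 1 gene of the fasted-state list is not reported here. Alternatives were DESeq2 1.42.0, limma-voom (limma 3.58.1) with quality weights, RLE size factors, library totals alone, no filter, a fit of the compared groups only, a replicate block, and leaving out each library. The numbers did not pair the samples.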

Additional observations from a re-analysis of the deposited data

Results flagged for a closer look

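Of 30 sets of 4 or 5 values (a gene in a group) tested for a library that stands apart, 5 held one, where chance gives about 1 in 20. In KO CTR replicate 1 this was *Srebf1* (151 CPM), *Acss2* (147), *Fasn* (212) and *Elovl6* (165), and in WT noCys replicate 4 it was *Srebf1* (144). Without KO CTR replicate 1 the calls of *Scd1* and *Acss2* against KO CTR held, and that of *Fasn* in KO noTrp was lost.

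A difference between effects was called for these genes by the edgeR test of that difference. The effect of the cysteine-free diet on *Scd1* was -3.28 lower in KO than in WT on the log2 scale (-4.07 without KO noCys replicate 1), and the genotype effect on *Acss2* was -0.92 lower without cysteine than without tryptophan. Among the genes around the 10, the cysteine effect in KO less that in WT was -1.91 for *Insig1*, -0.996 for *Srebf2*, 2.44 for *Trib3*, -0.44 for *Slc25a1*, -1.93 for *G6pdx*, -0.86 for *Idh1*, -0.51 for *Hsd17b12* and -0.87 for *Pck1*. Of the 14 fits that left out a library, 4 kept *Slc25a1* and 6 kept *Hsd17b12*, both also lost with library totals, 11 kept *Pck1* (lost without WT CTR replicate 1 or KO noCys replicate 3 or 4) and 13 kept *Trib3* (1.72 and not called without KO noCys replicate 3). *Slc25a1* was kept in 5 and *Hsd17b12* in 3 of the 7 other settings. The genotype effect without cysteine less that without tryptophan was -1.82 for *Insig1*, -0.86 for *Srebf2*, 2.27 for *Trib3*, 2.20 for *Pklr*, -0.64 for *Slc25a1*, -0.96 for *Idh1*, -2.41 for *Elovl3*, -1.15 for *Fads1* and -0.65 for *Hsd17b12*. The latter values rest on only 2 WT noTrp libraries: *Elovl3* (-1.83) and *Pklr* (1.41) were lost without replicate 1 of these, and *Trib3*, *Hsd17b12* and *Acss2* without replicate 2 or without KO noCys replicate 3. *Slc25a1*, *Hsd17b12* and *Acss2* were lost with library totals, and *Trib3* with limma-voom and when only the groups compared were fitted.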

How the results depend on the processing

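The calls of *Scd1* and *Acss2* in KO noCys against WT noCys, KO noCys against KO CTR and KO noTrp against KO CTR held in every alternative. The number of the 10 genes called moved with some settings. In KO noTrp against KO CTR it was 3, and 2 with library totals (*Fasn* lost) and 4 with DESeq2 (*Acaca* gained) or limma-voom (*Acacb* gained). In KO noCys against WT noCys it was 3, and 4 with only the groups compared (*Srebf1* gained). In KO noTrp against WT noTrp it was 1, and 0 with limma-voom, the replicate block or only the groups compared. In WT noTrp against WT CTR it was 1, and 0 with only the groups compared. With limma-voom it went from 2 to 4 in KO noCys against KO CTR (3 with library totals, *Mlxipl* gained), from 0 to 1 in WT noCys against WT CTR and from 1 to 3 in KO noCys against KO noTrp. For the difference of the cysteine effect it went from 1 to 2 with DESeq2, limma-voom and the replicate block, for the difference of the genotype effect from 1 to 0 with library totals, and over all groups from 4 to 2 with the replicate block and to 5 with limma-voom. The cause was not tested. Leaving out 1 library gave 2 to 4 in KO noCys against WT noCys, 2 to 3 in either depleted diet against KO CTR, 0 to 2 in KO noTrp against WT noTrp, 0 to 3 in KO noCys against KO noTrp, 1 to 2 for the cysteine effect and 0 to 2 for the genotype effect.

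Scaling by library totals moved the median of all genes in KO noCys against WT noCys from -0.02 to 0.20. None of the values that turned sign was called. Those were, in KO noCys against WT noCys, *Acly* with library totals (0.12) and *Acacb* with limma-voom (-0.014); in KO CTR against WT CTR, *Elovl6* with limma-voom (-0.028); with the replicate block, *Srebf1* (-0.13) and *Mlxipl* (-0.041) in KO noTrp against KO CTR, and *Mlxipl* (-0.0022) and *Acacb* (0.035) in WT noCys against WT CTR. *Acacb* was at 0.037 there with limma-voom. For the cysteine effect *Fasn* was at 0.23 with limma-voom and 0.13 with library totals. For the tryptophan effect *Srebf1* (0.23) and *Mlxipl* (0.26) turned with limma-voom, and for the genotype effect *Srebf1* (0.037) with the replicate block.

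The lowest and highest log2 fold changes over the fits that left out 1 library lay on both sides of 0 for values that were not called. In KO noCys against WT noCys they were *Acly* (-0.34 to 0.049) and *Fasn* (-0.049 to 0.56). In KO CTR against WT CTR they were *Mlxipl* (-0.26 to 0.0078), *Acly* (-0.020 to 0.16), *Acss2* (-0.20 to 0.085), *Elovl6* (-0.32 to 0.32) and *Pnpla3* (-0.48 to 0.75). In KO noTrp against WT noTrp they were *Srebf1* (-0.70 to 0.088), *Mlxipl* (-0.44 to 0.20), *Acss2* (-0.032 to 0.43), *Acacb* (-0.31 to 0.027) and *Pnpla3* (-1.50 to 0.86). In KO noCys against KO CTR they were *Elovl6* (-0.58 to 0.17). In KO noTrp against KO CTR they were *Srebf1* (-0.072 to 0.37) and *Mlxipl* (-0.079 to 0.19). In WT noCys against WT CTR they were *Mlxipl* (-0.057 to 0.14), *Acaca* (-0.16 to 0.0043) and *Acacb* (-0.15 to 0.050). In WT noTrp against WT CTR they were *Srebf1* (-0.27 to 0.52), *Mlxipl* (-0.27 to 0.37), *Acly* (-0.34 to 0.52) and *Pnpla3* (-1.75 to 0.80). In KO noCys against KO noTrp they were *Acly* (-0.079 to 0.31), *Scd1* (-0.84 to 0.23) and *Pnpla3* (-0.10 to 0.62). For the cysteine effect in KO less WT they were *Fasn* (-0.34 to 0.27) and *Elovl6* (-0.049 to 0.70). For the tryptophan effect in KO less WT they were *Srebf1* (-0.41 to 0.38), *Mlxipl* (-0.33 to 0.31), *Scd1* (-2.70 to 0.10), *Elovl6* (-0.57 to 0.13) and *Pnpla3* (-1.53 to 1.02). For the genotype effect without cysteine less without tryptophan they were *Srebf1* (-0.71 to 0.083), *Acly* (-0.090 to 0.78) and *Pnpla3* (-2.03 to 0.34).

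The replicate numbers did not pair the samples: of 41 pairs of libraries with the same number, 9 had deviations from their group means correlated above 0.1 (range -0.355 to 0.353), and 7 of 21 libraries correlated best with their own number. With groups of 2 to 5, effects under about 1.5-fold were called only where the spread was small. Of the 10, *Pnpla3* had the lowest counts, at 1 to 20 in a library, and how far depth limited any of the genes was not tested.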

Other observations

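KO noCys replicate 1 differed from replicates 3 and 4 in several of the 10 genes. It was lower for *Mlxipl* (181 CPM against 300 and 376), *Acaca* (27.9 against 45.7 and 47.6), *Fasn* (48.8 against 121 and 139), *Acly* (59.8 against 70.0 and 100) and *Elovl6* (52.8 against 67.2 and 100), and higher for *Scd1* (836 against 258 and 264). *Acss2* was nearly equal in the 3 (53.6, 50.7 and 51.2). *Alb* was at 44754 CPM in replicate 1 and at 21622 and 24482 in the others.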
